A study of Homo sapiens with 6 samples.

Results

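Matrix metalloproteinases (MMPs), the ADAM and ADAMTS proteases and their tissue inhibitors (TIMPs) were followed in HEYA8, an established line of human ovarian cancer cells whose source the submitters give as low grade serous carcinoma. The genes were taken by name: every row of the expression table whose symbol is MMP, ADAM or ADAMTS with a number, or TIMP1 to TIMP4. This gave 69 of 20061 rows, made up of 24 MMP, 22 ADAM, 19 ADAMTS and 4 TIMP symbols, pseudogene loci such as ADAM1 included. One group of cells carried a short hairpin RNA against the transcription factor ETS1 (shETS1, 3 samples) and the other a hairpin against luciferase, a gene that human cells lack (shLuciferase, 3 samples). In both groups the hairpin was stably expressed from a lentiviral construct, and the cells were grown under puromycin with no other treatment. The labels do not say whether a hairpin was tested in more than one clone or pool, nor whether the 3 samples in each group came from different cultures, and the deposited p-values may then measure technical spread only.

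Polyadenylated RNA was sequenced, and the authors' table gives each gene 1 FPKM value in each group (fragments sequenced per transcript length and library size, so that levels of different genes can be compared). Values per sample were not used here, so levels stand without an SD. The sequencing depth is unknown, and all p-values and q-values are those of the authors' deposited table. A gene is called changed at a q-value of at most 0.05. The targeted gene ETS1 was at 17.9 FPKM in shETS1 cells and 41.4 FPKM in shLuciferase cells, a called fall in the authors' deposited table. Of 10 ovarian carcinoma lineage markers, 8 reached 1 FPKM, and none was called. Their summed level was 3807 FPKM in shETS1 and 5248 FPKM in shLuciferase, most of it keratins, with KRT18 at 1498 and 2044 FPKM, KRT8 at 1288 and 1913 FPKM and KRT7 at 910 and 1187 FPKM. PAX8 was at 76.8 FPKM in shETS1 and 79.7 FPKM in shLuciferase, MSLN at 26.5 and 17.9 FPKM and SOX17 at 2.38 and 1.15 FPKM, the last 2 with p-values of 0.0309 and 0.00145 before adjustment in the authors' deposited table. MUC16 and FOLR1, which were untested, were at or below 0.0713 FPKM.

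MMPs, ADAMs and ADAMTS proteases share a metalloproteinase domain, which depends on zinc where it is active, and are made as inactive proenzymes. Secreted MMPs cleave collagens and other matrix proteins, membrane-type MMPs act at the cell surface, most active ADAMs release the outer parts of membrane proteins, and ADAMTS enzymes are secreted proteases of proteoglycans, procollagens and other matrix substrates. TIMPs bind the active site and block it. ETS1 is known as an activator of several of these protease genes, often through an ETS site beside a site for AP-1, the dimer of FOS and JUN family proteins, which is why these genes are read against an ETS1 knockdown.

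Promoter sequence is shown for 5 members, 3 chosen for their values and 2 for their motifs. ADAM8 is a called gene, ADAM15 had the largest FPKM difference and MMP14 was the most abundant member. MMP7 and ADAMTS12 are the 2 members whose window holds a match to the AP-1 search pattern near an ETS core. The sequences are the 250 bases before the annotated start, 5′ to 3′ on the gene's strand, from RefSeq on GRCh38.p14. Capitals mark the ETS core GGAA (TTCC where it lies on the other strand) and the AP-1 element, searched as TGANTCA with any base at N. The pattern reads the same on both strands, and its match is TGAGTCA in MMP7 and TGAATCA in ADAMTS12. RefSeq windows were matched for 39 of the 69 members. Among the members with none are MMP1 and MMP9.
ADAM8 (chr10:133276869-133277118, minus strand): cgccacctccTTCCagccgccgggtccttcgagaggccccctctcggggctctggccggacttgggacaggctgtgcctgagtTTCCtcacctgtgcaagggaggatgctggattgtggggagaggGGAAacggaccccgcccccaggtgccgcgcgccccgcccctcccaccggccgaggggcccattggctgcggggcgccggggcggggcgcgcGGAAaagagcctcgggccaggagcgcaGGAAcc
ADAM15 (chr1:155051066-155051315, plus strand): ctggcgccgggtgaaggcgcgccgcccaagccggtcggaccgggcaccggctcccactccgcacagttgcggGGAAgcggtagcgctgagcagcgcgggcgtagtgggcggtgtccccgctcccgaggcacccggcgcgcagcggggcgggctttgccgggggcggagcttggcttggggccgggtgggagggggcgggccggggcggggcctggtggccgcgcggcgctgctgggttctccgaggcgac
MMP14 (chr14:22836335-22836584, plus strand): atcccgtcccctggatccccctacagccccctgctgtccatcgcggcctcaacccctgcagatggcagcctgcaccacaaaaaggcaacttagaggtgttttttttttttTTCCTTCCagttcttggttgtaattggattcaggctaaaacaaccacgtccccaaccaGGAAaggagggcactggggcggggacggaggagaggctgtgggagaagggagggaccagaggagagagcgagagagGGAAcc
MMP7 (chr11:102530748-102530997, minus strand): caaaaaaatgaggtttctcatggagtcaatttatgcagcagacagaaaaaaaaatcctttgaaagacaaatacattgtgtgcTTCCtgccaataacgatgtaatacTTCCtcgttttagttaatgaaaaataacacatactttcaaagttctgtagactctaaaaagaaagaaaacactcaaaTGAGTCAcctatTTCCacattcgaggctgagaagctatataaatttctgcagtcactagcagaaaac
ADAMTS12 (chr5:33891991-33892240, minus strand): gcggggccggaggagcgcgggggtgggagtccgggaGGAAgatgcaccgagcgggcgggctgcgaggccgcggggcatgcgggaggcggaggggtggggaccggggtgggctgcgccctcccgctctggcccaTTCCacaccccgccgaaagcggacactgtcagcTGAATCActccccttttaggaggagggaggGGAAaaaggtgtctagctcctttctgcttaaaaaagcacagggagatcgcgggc

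The comparison asks which of these genes differ between the hairpin groups. Effects of the ETS1 hairpin on other genes cannot be told apart from those of lowered ETS1. The collagenase MMP1, the gelatinase MMP9 and the sheddase ADAM8 were called higher in shETS1 cells, and no member was called lower. These are 3 of the 33 members that the authors tested (9.09%), all in one direction; over all 11952 tested rows, 0.812% were called, 0.544% higher and 0.268% lower. The members were assembled with results of this table known, and MMP1 and MMP9 are long-described ETS1 targets, so the count is a description. ETS1 itself was lower in shETS1 cells, and MMP1 and MMP9 were higher. The reason was not tested. At a p-value under 0.05 without adjustment there were 4 higher members (ADAM8, ADAMTS2, MMP1 and MMP9) and 3 lower ones (ADAM15, MMP15 and TIMP3), 21.2% of those tested, against 6.94% of all tested rows (3.90% higher and 3.04% lower). In bulk RNA, a change in the number of cells that express a gene and a change in RNA per cell cannot be told apart.

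A small number of genes carried most of the family's RNA. MMP14, TIMP1, ADAM15, ADAMTS1 and TIMP2 made up 86.8% of the members' summed FPKM in shETS1 cells and 87.3% in shLuciferase cells, and no other member passed 15.5 FPKM in either group. In shETS1 cells the order was MMP14 (192 FPKM), TIMP1 (183 FPKM), ADAM15 (64.9 FPKM), ADAMTS1 (46.5 FPKM) and TIMP2 (45.0 FPKM). In shLuciferase cells the same 5 genes led, with MMP14 at 171 FPKM, TIMP1 at 148 FPKM, ADAM15 at 107 FPKM, TIMP2 at 49.2 FPKM and ADAMTS1 at 42.3 FPKM. None of the 5 was called. ADAMTS1 and TIMP2 stood in the other order in the 2 groups, but neither gene passed the test.

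**Figure D1:**
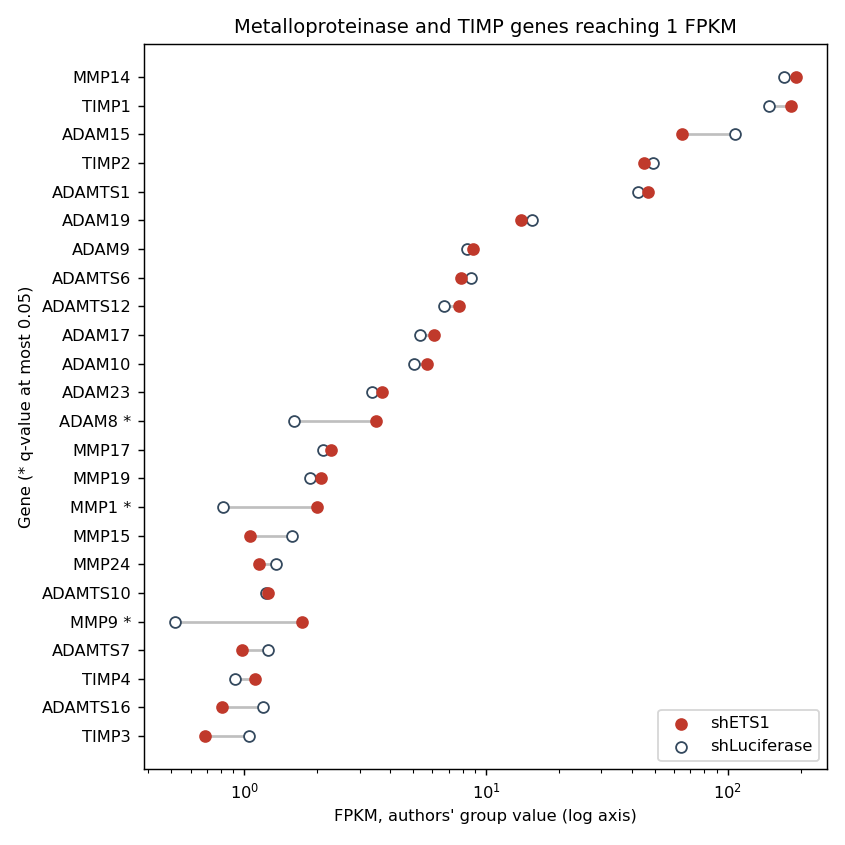
FPKM (horizontal log axis) of the 24 members that reached 1 FPKM in shETS1 (filled red circles) or shLuciferase cells (open circles), ordered by their mean, with an asterisk on called genes; each point is the authors' group value, so there are no error bars. The 3 called genes, ADAM8, MMP1 and MMP9, have the widest gaps on the log axis and lie among the less abundant members, while MMP14 at 192 and 171 FPKM tops the order.

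Collagenases cut the triple helix of fibrillar collagens. MMP1, the interstitial collagenase (locus chromosome 11, 102660641 to 102668966, hg19), was at 2.01 FPKM in shETS1 cells and 0.816 FPKM in shLuciferase cells, 2.46-fold higher. In the authors' deposited table its log2 fold change is 1.30, its p-value 0.0002 and its q-value 0.0306. The other collagenases were untested, with MMP13 at 0.00356 FPKM in shETS1 and 0.00502 FPKM in shLuciferase and MMP8 listed at 0 in both groups.

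MMP1 lies in a cluster of 9 MMP genes that spans 435 kb on chromosome 11 (102391239 to 102826463, hg19). It was the one gene of the cluster that was tested, and none of the other 8 passed 0.313 FPKM in either group. MMP3, stromelysin 1, was highest among these at 0.313 FPKM in shETS1 and 0.183 FPKM in shLuciferase. MMP10, stromelysin 2, was at 0.0213 and 0.0477 FPKM, and the matrilysin MMP7 at 0.0216 and 0.0136 FPKM, in shETS1 and shLuciferase. MMP8, MMP12, MMP20 and MMP27 were listed at 0 in both groups. The rise was thus measured in MMP1 alone, and the table gives no test for its neighbours.

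Gelatinases degrade denatured collagens and collagen IV of basement membranes. MMP9 (gelatinase B, locus chromosome 20, 44637547 to 44645200, hg19) was at 1.73 FPKM in shETS1 cells and 0.517 FPKM in shLuciferase cells. Its 3.35-fold rise was the largest among the tested members, and the authors' deposited table lists it with a log2 fold change of 1.74, a q-value of 0.00964 and a p-value of 5e-05, the smallest in the table. MMP2 (gelatinase A), the other member of this pair, was at 0.450 FPKM in shETS1 and 0.475 FPKM in shLuciferase and was not called (q-value 1.00 in the authors' deposited table). The difference between the changes of MMP9 and MMP2 was not tested.

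The 6 membrane-type MMPs were all tested and none was called. MMP14 (MT1-MMP), which activates pro-MMP2 and cleaves pericellular collagen, was at 192 FPKM in shETS1 and 171 FPKM in shLuciferase, 93.7% and 94.1% of the summed FPKM of all MMPs. The remaining members of this group were low. MMP15 was at 1.06 FPKM in shETS1 and 1.58 FPKM in shLuciferase, and the authors' deposited table gives p-value 0.0446 and q-value 0.685. MMP17, which is anchored by a glycolipid, was at 2.28 and 2.12 FPKM, and MMP24 at 1.15 and 1.36 FPKM, in shETS1 and shLuciferase. The locus given for MMP24 spans 2 other expressed genes, EDEM2 and PROCR, and no strand-marking step is described. Only locus coordinates were compared, so whether they share reads with MMP24 was not tested. MMP16 was at 0.917 FPKM in shETS1 and 0.962 FPKM in shLuciferase, and MMP25 at 0.424 and 0.492 FPKM. Of the other MMPs only MMP19 was tested, at 2.08 FPKM in shETS1 and 1.88 FPKM in shLuciferase, and it was not called.

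Among the ADAMs with a protease active site, 7 of 12 were tested, ADAM8 was called higher and none was called lower. ADAM8, a sheddase first described in leukocytes (locus chromosome 10, 135075920 to 135090407, hg19), was at 3.51 FPKM in shETS1 cells and 1.61 FPKM in shLuciferase cells, 2.18-fold higher. The authors' deposited table lists a log2 fold change of 1.12 with p-value 0.00025 and q-value 0.0352. No other expressed row shares the locus of ADAM8, MMP1 or MMP9.

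ADAM15, which carries an integrin-binding motif in its disintegrin domain, was the most abundant ADAM. It was at 64.9 FPKM in shETS1 and 107 FPKM in shLuciferase cells, a level 39.6% lower. The p-value was 0.0032 and the q-value 0.172 in the authors' deposited table, so it did not pass the threshold; the largest p-value of any called gene there is 0.0004. In FPKM, its difference of -42.4 exceeded that of any other member, while the called genes differed by 1.90 (ADAM8), 1.22 (MMP9) and 1.19 FPKM (MMP1). The summed FPKM of all ADAMs was 109 in shETS1 and 149 in shLuciferase, and without ADAM15 the sums were 44.3 and 41.8 FPKM.

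The main sheddases of growth factors, cytokines and NOTCH receptors were tested and not called. ADAM10 was at 5.71 FPKM in shETS1 and 5.04 FPKM in shLuciferase, and ADAM17, the TNF-alpha converting enzyme, at 6.12 and 5.36 FPKM. ADAM9 was at 8.83 FPKM in shETS1 and 8.34 FPKM in shLuciferase. ADAM19 was at 13.9 and 15.5 FPKM, in a locus that also spans CYFIP2 and NIPAL4. Nor did ADAM9 or ADAM19 pass the test. ADAM12 was tested below 1 FPKM, at 0.833 FPKM in shETS1 and 0.930 FPKM in shLuciferase. Of the ADAMs that lack the catalytic site and act in adhesion, ADAM23 was at 3.70 FPKM in shETS1 and 3.39 FPKM in shLuciferase, ADAM11 was at 0.739 and 0.633 FPKM, and the other 7 were untested. ADAM1, a pseudogene locus in humans that was put in neither group, was at 0.512 FPKM in shETS1 and 0.575 FPKM in shLuciferase.

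No ADAMTS gene was called among the 9 tested. ADAMTS1, a protease of versican and aggrecan that is also known as an angiogenesis inhibitor, led with 46.5 FPKM in shETS1 and 42.3 FPKM in shLuciferase, 68.4% and 66.9% of the ADAMTS sum. ADAMTS6 was at 7.88 and 8.64 FPKM and ADAMTS12 at 7.72 and 6.68 FPKM, in shETS1 and shLuciferase. ADAMTS10, known for a role in fibrillin microfibrils, was at 1.25 and 1.23 FPKM, and ADAMTS7, a protease of cartilage oligomeric matrix protein, at 0.979 and 1.25 FPKM. ADAMTS16 was at 0.807 FPKM in shETS1 and 1.20 FPKM in shLuciferase, and the authors' deposited table gives q-value 0.843. ADAMTS9 was tested at 0.518 and 0.553 FPKM.

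Both tested ADAMTS genes with a ratio above 2 were under 1 FPKM in each group. ADAMTS2, which trims the amino-terminal propeptide of fibrillar procollagens, was at 0.741 FPKM in shETS1 and 0.311 FPKM in shLuciferase, and the authors' deposited table gives p-value 0.00755 and q-value 0.285. ADAMTS13, the protease of von Willebrand factor, had a similar ratio of 2.13-fold, at 0.729 FPKM in shETS1 and 0.343 FPKM in shLuciferase, with a p-value of 0.692 there. Its locus overlaps that of REXO4, which is expressed, and whether reads are shared between them was not tested. A ratio above 2 was therefore not enough for a call at these levels.

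All 4 TIMPs were tested and none was called. TIMP1 was at 183 FPKM in shETS1 and 148 FPKM in shLuciferase, and the locus given for it also spans the expressed gene ARAF. TIMP2, which takes part in activation of pro-MMP2 by MMP14, was at 45.0 and 49.2 FPKM in shETS1 and shLuciferase. TIMP3, which is bound to the matrix and also inhibits ADAM17, was at 0.686 FPKM in shETS1 and 1.05 FPKM in shLuciferase, and the authors' deposited table gives p-value 0.0457 and q-value 0.690. TIMP4 was at 1.11 and 0.914 FPKM in shETS1 and shLuciferase. Summed over the family, TIMP RNA was 1.12 times MMP RNA in shETS1 cells and 1.09 times in shLuciferase cells, on the FPKM scale.

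**Figure D2:**
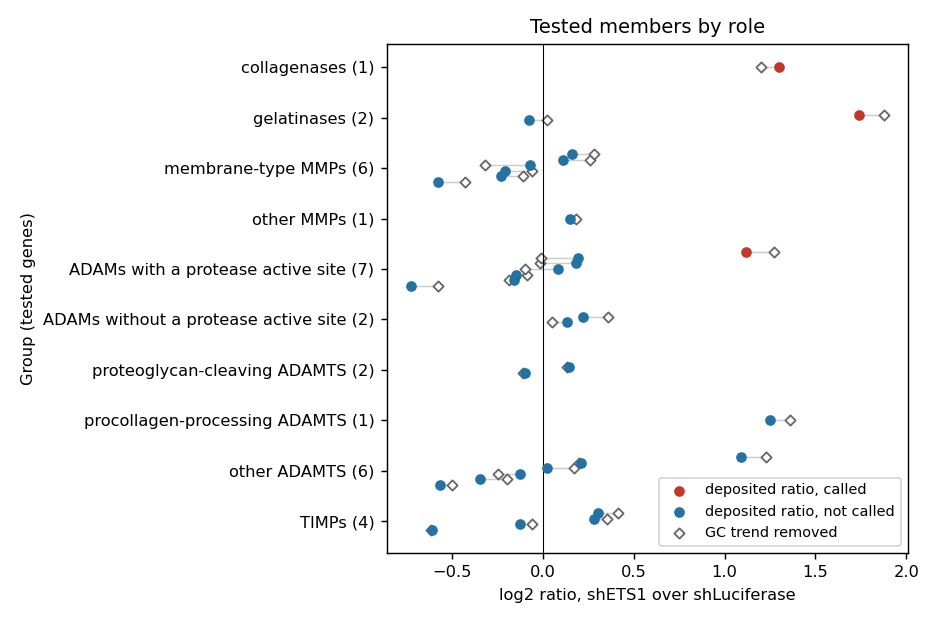
Log2 ratio of shETS1 over shLuciferase (horizontal axis) of the 32 tested members with a role and a GC value, by role, with the number tested in parentheses. Filled circles are deposited ratios (red where called) and open diamonds the ratios once the GC trend had been taken out; MMP9 stands farthest right at 1.74 and ADAM15 farthest left at -0.73.

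The members below these levels were measured but not compared. In all, 45 members stayed under 1 FPKM in both groups, and 9 of these were tested. Of the 36 untested members, 13 were listed at 0 in both groups, 3 at 0 in shETS1 only (ADAM28, ADAM33 and MMP21), 2 at 0 in shLuciferase only (ADAMTS8 and MMP28), and 18 were above 0 in both. The highest was MMP11, stromelysin 3, at 0.422 FPKM in shETS1 and 0.271 FPKM in shLuciferase. ADAMTS3, a relative of ADAMTS2, was at 0.284 and 0.252 FPKM, the aggrecanase ADAMTS5 at 0.257 and 0.206 FPKM, and ADAM22 at 0.242 and 0.225 FPKM, in shETS1 and shLuciferase. With no read numbers, a level listed at 0 does not show that a gene is silent.

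The 3 called genes sit in a narrow range of levels. Their means of both groups were 2.56 FPKM for ADAM8, 1.41 FPKM for MMP1 and 1.13 FPKM for MMP9. Among tested members with a mean from 1 to under 3 FPKM, 3 of 11 were called, while 1.20% of all 2089 tested rows in that range were. The range was set around the called genes after the values were seen. MMP1 and MMP9 enter it only through their level in shETS1 cells, where they are higher. These shares therefore cannot be read as an excess of called members. Of the 11 tested members averaging 5 FPKM or more none was called, and apart from ADAM15 none of them differed by more than 1.24-fold. The smallest change of any called gene in the table was 1.83-fold, and 26 of the 33 tested members differed by less than 1.5-fold. For the 23 tested members averaging 1 FPKM or more over the groups, the median log2 ratio was 0.13 and 15 were above 0 (65.2%). Over the 10676 such rows of the table the median was 0.02 and 52.6% were above 0. With a trend on transcript GC content removed, the medians were 0.05 for these members and -0.01 for such rows with a GC value. ADAM10, ADAM17 and ADAM9, counted among the 15, were then below 0. The share above 0 is therefore not read as an excess.

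When 1 FPKM was added to each group's value, the log2 ratio was 0.85 for MMP9, 0.79 for ADAM8 and 0.73 for MMP1. MMP9 and MMP1 were below 1 FPKM in shLuciferase cells, so of the called members only ADAM8 was above 1 FPKM in each group.

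**Figure D3:**
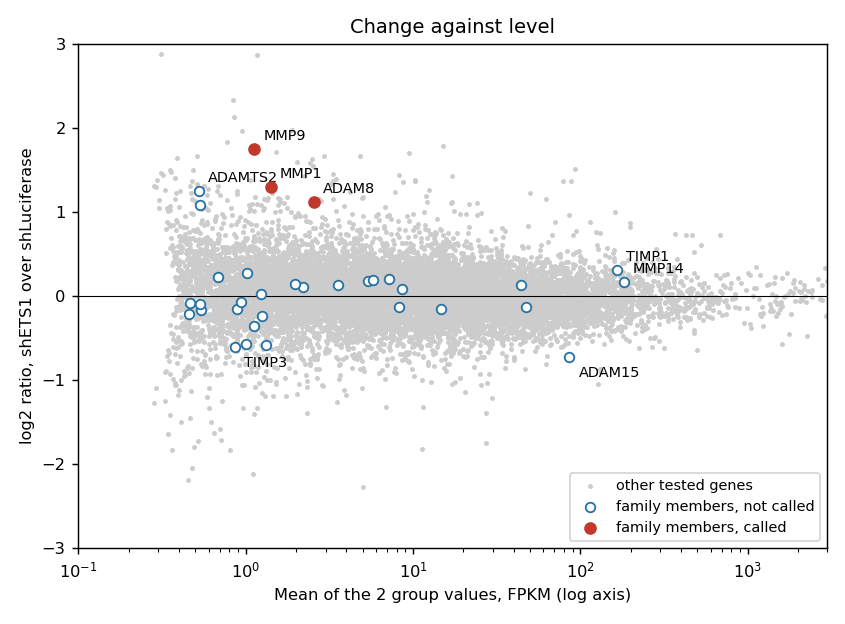
Log2 ratio of shETS1 over shLuciferase (vertical axis) against the mean of the 2 group values (horizontal log axis, FPKM). Red points are the 3 called members, open blue circles the 30 tested members that were not called, and grey points other tested genes; 53 tested genes outside the axes or without a finite ratio are not drawn. The called members lie between 1 and 3 FPKM, and ADAM15 is the abundant member farthest from 0.

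Base composition moved with the ratios over the whole table. Across 9735 tested rows that averaged 1 FPKM or more and had a transcript in GENCODE, the Spearman rho between the log2 ratio and the GC content of the transcript was -0.46, a description over genes that share the same libraries. The called members lie on both sides of the median GC content of 48.8%, with MMP1 at 43.4%, MMP9 at 62.4% and ADAM8 at 63.8%. With a cubic trend on GC content removed, the log2 ratio was 1.88 for MMP9, 1.27 for ADAM8 and 1.20 for MMP1, against 1.74, 1.12 and 1.30 before. ADAM15, at 63.9% GC, had -0.58 in place of -0.73. The ratios of ADAM10, ADAM17, ADAM9 and MMP2, all within 0.2 of 0, changed sign under this correction, so no direction is given for them.

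In the promoter windows shown above, ADAM8 had 5 ETS cores, the nearest at -6 to -3 and -33 to -30 from the start. ADAM15 had 1, at -178 to -175. MMP14 had 4, including an adjacent pair on the other strand at -140 to -133. Over all 35116 RefSeq windows of the same length, 92.7% held at least 1 GGAA and 18.6% held 5 or more, so a match of this kind is common; of the 40 windows of members, 38 held at least 1 and 5 held 5 or more.

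The AP-1 search pattern, with any base at its centre, was rarer. TGANTCA occurred in 6.57% of all windows and in 4 of the 40 windows of members, those of MMP7, MMP10, MMP20 and ADAMTS12. It lay within 50 bases of a GGAA in 4.28% of all windows and in 2 of the members' windows. In MMP7 the match TGAGTCA at -67 to -61 is followed by an ETS core at -55 to -52. In ADAMTS12 the match TGAATCA at -84 to -78 is followed by one at -54 to -51. MMP7 was nearly undetected at 0.0216 FPKM in shETS1 and 0.0136 FPKM in shLuciferase, and ADAMTS12 was expressed at 7.72 and 6.68 FPKM without being called. A match describes these letters and is not a measured binding site.

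**Figure D4:**
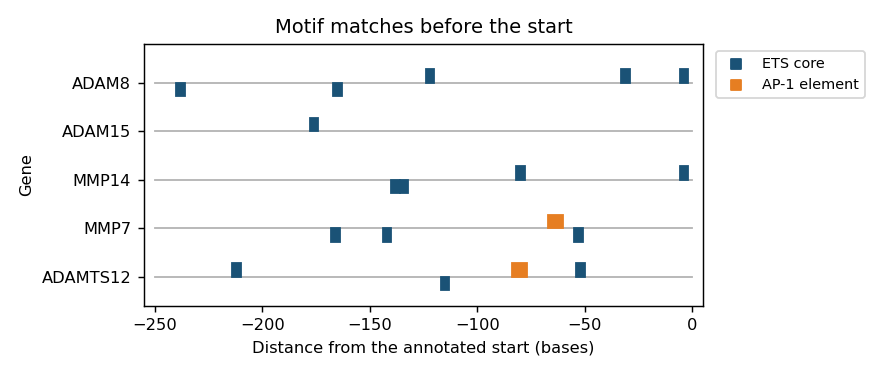
Matches of the ETS core (blue) and the AP-1 element (orange) in the 250 bases before the annotated start of 5 members (horizontal axis, distance from the start in bases), above the line on the gene's strand and below it on the other. ADAM8 has 5 ETS cores and ADAM15 has 1, and in MMP7 and ADAMTS12 an ETS core follows the match to TGANTCA.

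Genes around the families were read from 3 lists. Of 38 activators and inhibitors outside the families, 28 were tested, 2 were called higher and none lower. This is 7.14% of those tested, against 0.812% of all tested rows. TFPI2, a matrix-bound inhibitor of plasmin and other serine proteases, was at 113 FPKM in shETS1 and 58.2 FPKM in shLuciferase, and the authors' deposited table gives q-value 0.0242. SPOCK1, the matrix proteoglycan testican 1, was at 1.54 FPKM in shETS1 and 0.591 FPKM in shLuciferase, and its q-value there is 0.0178. Of its abundant genes, PLAU and BSG were not called. PLAU, the urokinase that generates plasmin, was at 854 FPKM in shETS1 and 514 FPKM in shLuciferase, and BSG, a membrane protein known as an inducer of MMPs, at 352 and 436 FPKM. The list's 28 tested members had a median log2 ratio of 0.11.

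Of 26 membrane proteins known to be shed by ADAM10 or ADAM17, 18 were tested, 1 was called lower and none higher. This is 5.56% of those tested, against 0.812% of all tested rows. The gene called lower was IL6R, the interleukin 6 receptor, at 0.616 FPKM in shETS1 and 1.63 FPKM in shLuciferase. The authors' deposited table gives q-value 0.00964. AXL, a receptor tyrosine kinase, was at 256 and 232 FPKM, CD44, the hyaluronan receptor, at 184 and 129 FPKM, and the TNF receptor TNFRSF1A at 146 and 152 FPKM, in shETS1 and shLuciferase, and none of these was called. The 17 tested members of this list that averaged 1 FPKM or more had a median log2 ratio of -0.01. RNA levels do not measure shedding, which acts on the proteins.

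None of 9 tested AP-1 subunits was called at the q-value threshold, and 3 had a p-value under 0.05 without adjustment. FOSL1, the most abundant, was at 756 FPKM in shETS1 and 703 FPKM in shLuciferase, JUN at 127 and 152 FPKM, and FOSL2 at 23.0 and 23.9 FPKM. The 3 with a low unadjusted p-value were JUNB, at 21.0 FPKM in shETS1 and 13.8 FPKM in shLuciferase, JUND, at 22.0 and 31.4 FPKM, and BATF3, at 14.9 and 22.0 FPKM. The median log2 ratio of the 9 tested subunits was -0.06.

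Markers of other cell types that can make these proteases were read beside them. Of 8 leukocyte markers, 1 was tested and none was called, the summed level was 0.937 FPKM in shETS1 and 0.996 FPKM in shLuciferase, and PTPRC, TYROBP, CD3E and ELANE were listed at 0 in both groups. Of 8 fibroblast markers 2 were tested, with a sum of 10.2 FPKM in shETS1 and 6.02 FPKM in shLuciferase. FAP, the most abundant, was at 6.31 FPKM in shETS1 and 4.60 FPKM in shLuciferase and was not called. COL1A1 rose, at 3.75 and 1.29 FPKM, while COL3A1 and DCN were listed at 0 in both groups and COL1A2 was at or below 0.0201 FPKM. Of the endothelial markers, 4 were tested, with a sum over 8 listed genes of 141 FPKM in shETS1 and 206 FPKM in shLuciferase. Most of it was TIE1 at 122 and 164 FPKM. CDH5 was called lower, at 5.00 and 17.6 FPKM (q-value 0.00964 in the authors' deposited table), 25.0% of those tested. All 4 tested were lower in shETS1, and 3 had a p-value under 0.05 there without adjustment (75.0%, against 6.94% of all tested rows). ESAM was at 1.06 and 2.42 FPKM and ROBO4 at 12.8 and 21.0 FPKM, in shETS1 and shLuciferase, and neither was called. KDR, VWF, CLDN5 and EMCN were untested, and none passed 0.295 FPKM in either group. The part of these markers in the changes of MMP1, MMP9 and ADAM8 was not tested.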

How the data were processed

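The submitters' processing notes name Cufflinks 2.1.1, TopHat2 2.0.7, SAMtools 0.1.18, Bowtie2 2.0.6 and build hg19. The part each played, the annotation and the scaling between libraries are not stated. Per the labels' protocols, polyadenylated RNA was copied with random hexamers. Per the file headers, the table is laid out as a Cuffdiff comparison: the authors deposited 1 FPKM value per gene and group, combined over 3 samples, a log2 fold change, a test score (not used), a p-value and a q-value. The count or limma test foreseen for values per sample did not apply. A Benjamini-Hochberg adjustment over the 11952 tested rows gave the deposited q-values within 5.16e-07, and the deposited log2 fold change of every member with both levels above 0 equals the ratio of its FPKM values within 0.001.

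Members and gene lists were chosen with earlier results of these data known. Every member reaching 1 FPKM in either group, and every tested or called member, is named; of the other lists, called genes and the 3 most abundant, and some markers and AP-1 genes named after their values were seen; 1 gene that the rule names is not reported here. GC content came from GENCODE 29 (GRCh38), by symbol, from the transcript with the longest coding sequence, for 91.2% of tested rows averaging 1 FPKM or more and 97.0% of tested members. Locus coordinates are hg19, counted from 1. The adjustment, trend fit and motif search were tested on simulated data. Python 3.11.15 with numpy and pandas was used.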

Additional observations from a re-analysis of the deposited data

How the results depend on the processing

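No paired analysis was possible because the table holds 1 value per gene and group; for the same reason no replicate could be left out, and both alternatives set out for values per sample were not run. ADAM8, MMP1 and MMP9 stayed called at a q-value of at most 0.1 or 0.2 and with p-values adjusted again over rows with a mean of at least 1 FPKM. With at least 1 FPKM required in both groups, 1 member was called higher (ADAM8). Called lower were 0 members, but 1 at a q-value of at most 0.2 (ADAM15) and 3 at a p-value under 0.05 without adjustment. The lists outside the families moved likewise. Requiring 1 FPKM in both groups left 1 of the 2 called activators and inhibitors (TFPI2), and 0 of the shed membrane proteins. At a q-value of at most 0.2, 1 shed protein was higher (NRG1) and 2 were lower (IL6R and NOTCH1). At a p-value under 0.05 without adjustment there were 4 higher activators and inhibitors, 1 higher and 4 lower shed proteins, and 1 higher and 2 lower AP-1 subunits. These are 14.3%, 27.8% and 33.3% of the tested genes of each list, against 6.94% of all tested rows. The median log2 ratio of the members ranged from 0.05 with the GC trend removed to 0.14 at a mean of at least 5 FPKM. Of 33 members named with a test, adding 1 FPKM moved 14 log2 ratios by over 0.1 and changed no sign, adding 0.1 FPKM moved 3, and subtracting the median of all rows moved 0. Removing the GC trend moved 20 of 32 and changed the sign of 4. Depth, unknown here, limits what the low members can show.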
